A study of Mus musculus with 9 samples.

Results

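The comparison is that of SAMP8 mice given TFQA with SAMR1 mice given water, on 6 of the 9 arrays of the study. It was chosen by group label alone: the 3 SAMP8 TFQA arrays were set against the 3 SAMR1 water arrays, and the 3 SAMP8 water arrays did not enter the test. SAMP8 is a senescence-accelerated prone strain and SAMR1 its senescence-resistant control strain. All mice were 6-month-old males, and the SAMP8 mice received TFQA, 3,4,5-tri-feruloylquinic acid, at 1 mg/kg for 37 days by oral gavage, while the SAMR1 mice received water. The groups therefore differ in strain and in treatment at the same time, and within these 6 arrays the effects of strain and of TFQA cannot be told apart. Hippocampus is the tissue according to the paper, but brain and neural stem cells according to the labels. All 22206 transcripts of the Clariom S Mouse array were tested, of which 19572 carry 1 gene symbol, and these stand for 19505 genes.

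The deposited values are log2 signals, 1 per transcript and array. The column medians lay between 6.76 and 6.80 in SAMP8 TFQA and between 6.78 and 6.79 in SAMR1 water, and the correlation between any pair of the 6 arrays was 0.988 to 0.993 across transcripts, which are not independent replicates. A log2 difference is SAMP8 TFQA minus SAMR1 water, so that a positive value means a higher signal in SAMP8 TFQA. "Rose" and "fell" are used only for transcripts at a Benjamini-Hochberg adjusted p under 0.05 in limma, adjusted over all transcripts. The threshold of the study (a fold change over 1.1 at an unadjusted p under 0.05) is given beside it. With so few arrays the precision is limited, and the standard error of a log2 difference had a median of 0.19. Neither the labels nor the paper say whether replicate arrays stem from different animals. The p-values therefore reflect the spread between these arrays, which may be technical.

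Markers of tissue next to the hippocampus differed between single arrays. All 15 measured markers of striatal medium spiny neurons, the projection neurons of the striatum, were highest in SAMP8 TFQA replicate 2. Their mean level was 11.50 in that array beside 8.47 and 8.48 in SAMP8 TFQA replicates 1 and 3, against 8.43 to 9.32 in SAMR1 water. The list's median log2 difference was 0.74 with that array and -0.27 without it. The 12 markers of thalamic neurons set other arrays apart, with a mean level of 9.96 in SAMP8 TFQA replicate 1 beside 8.80 and 8.84 in replicates 2 and 3, against 8.00, 9.85 and 8.5 in SAMR1 water replicates 1, 2 and 3. Their median log2 difference was 0.35 and moved when any 1 array was left out, to 0.01 without SAMP8 TFQA replicate 1 at the low end and 0.95 without SAMR1 water replicate 2 at the high end. Markers of the hippocampus were present in every array. The mean level of hippocampal CA pyramidal neuron markers was 10.37 to 10.68 in SAMP8 TFQA, against 10.69 to 10.84 in SAMR1 water, and the mean level of dentate granule cell markers was 8.00 to 8.23 in SAMP8 TFQA, against 8.18 to 8.44 in SAMR1 water. Markers of neural stem cells and newborn neurons had mean levels of 8.87 to 8.96 in SAMP8 TFQA, against 8.79 to 8.92 in SAMR1 water.

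Inbred strains such as SAMP8 and SAMR1 can differ in the number and sequence of gene copies as well as in expression, and an array reads both as a difference in signal. Genes that lie next to each other on a chromosome and arose by duplication share sequence, so that a probe designed for one copy can also bind the RNA of another. In the brain, blood vessels are lined by endothelial cells that pump many drugs and plant compounds back into the blood through P-glycoprotein, and meningeal fibroblasts, pericytes, microglia and neurons each have marker genes of their own. In bulk tissue, fewer cells of a type and less RNA per cell cannot be told apart.

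In SAMP8 TFQA vs. SAMR1 water, 85 transcripts rose, 0.383% of all tested, and 18 fell, 0.0811% of all tested. In all 103 of them the 3 arrays of one group lay entirely above the 3 of the other, and in 102 the log2 difference was larger than 1 in size. Of these transcripts, 52 carry a gene symbol, 43 that rose and 9 that fell, and 51 carry none. The study's threshold was passed by 840 higher transcripts, 3.78% of all, and by 763 lower ones, 3.44%, and the fold change criterion removed 0 of those at an unadjusted p under 0.05. The 2 groups of arrays did not overlap in 1326 transcripts that were higher, 5.97%, and in 1403 that were lower, 6.32%. The median log2 difference over all transcripts was -0.01. The calls were unevenly spread over the genome. Chromosome 4 with its unplaced scaffolds held 36 of them, 2.66% of its measured transcripts, and chromosome 14 held 26, 2.82%. No other chromosome held more than 5. Chromosome Y held 5 of only 219 measured, a similar share of 2.28%, and every other chromosome had a share of 0.445% or less.

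**Figure D1:**
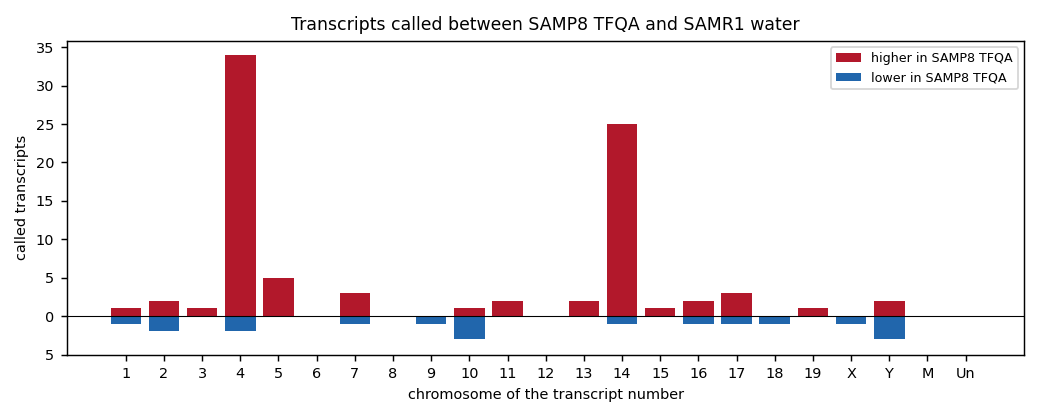
Number of transcripts called at an adjusted p under 0.05 in SAMP8 TFQA vs. SAMR1 water by the chromosome in the transcript's number, those higher in SAMP8 TFQA drawn upward and those lower drawn downward. Chromosome 4 had 34 higher and 2 lower, chromosome 14 had 25 higher and 1 lower, and chromosomes 6, 8 and 12 had 0.

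The sequences of the chromosome 4 genes show how alike neighbouring copies can be. In the reference genome, which comes from another inbred strain, C57BL/6J, the promoter windows of Gm20878 and Gm21953 (250 bases before to 50 after a start of the gene, from RefSeq, GRCm38.p6) were identical in 300 of 300 bases. A gene can have several such starts, some of them inside its span. Both are protein-coding genes known only by a number. The window of Ccl27a, a chemokine of the skin that binds the receptor CCR10, aligned with that of Gm21953 over 293 columns, with 287 identical bases, 5 that differed and 1 gap, or 98% identity. The aligned parts are chr4:41774135-41774426 on the minus strand for Ccl27a and chr4:42293621-42293913 on the plus strand for Gm21953, printed 5′ to 3′ with the bases that differ in capitals. The part of Ccl27a reaches more than 50 bases into its span, chr4:41769467-41774225, so its window is not that of the outermost start.
Ccl27a: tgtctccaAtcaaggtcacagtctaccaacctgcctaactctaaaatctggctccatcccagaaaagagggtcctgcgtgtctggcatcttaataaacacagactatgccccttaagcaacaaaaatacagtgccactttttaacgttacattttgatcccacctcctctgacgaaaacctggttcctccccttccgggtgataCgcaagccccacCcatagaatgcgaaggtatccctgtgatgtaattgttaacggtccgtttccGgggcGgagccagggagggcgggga
Gm21953: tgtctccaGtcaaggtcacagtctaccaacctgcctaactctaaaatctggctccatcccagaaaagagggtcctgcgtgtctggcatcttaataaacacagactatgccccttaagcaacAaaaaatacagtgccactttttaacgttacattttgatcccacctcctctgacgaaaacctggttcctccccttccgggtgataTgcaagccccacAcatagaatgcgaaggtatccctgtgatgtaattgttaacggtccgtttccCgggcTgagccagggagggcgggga

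Between 41491847 and 42859820 of chromosome 4 (GRCm38.p6), 23 genes were measured, of which 10 rose and 1 fell, with a median log2 difference of 0.87. These are Myorg, Dctn3, Ccl27a, Gm20878, Fam205a4, Gm3893, Gm21953, Fam205a3, Fam205a2, Ccl19 and Fam205a1 in their order along the chromosome. Gm3893, a transcribed pseudogene at chr4:42089373-42092930, had log2 signals of 17.69, 17.08 and 17.62 in SAMP8 TFQA, against 9.18, 7.35 and 7.98 in SAMR1 water. All 3 SAMP8 TFQA arrays were above 17 and all 3 SAMR1 water arrays below 10. The log2 difference was 9.29 (standard error 0.39, adjusted p = 9.54e-07 in limma), the largest of all named genes.

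Fam205a2, at chr4:42522437-42537578, has 2 transcripts on the array. The one numbered to an unplaced scaffold of chromosome 4 was at 13.18, 13.08 and 13.18 in SAMP8 TFQA, against 6.76, 5.82 and 6.48 in SAMR1 water, and rose by 6.79 (standard error 0.23, adjusted p = 2.53e-07). The one numbered to chromosome 4 itself was at 9.12, 9.29 and 9.47 in SAMP8 TFQA, against 6.65, 6.79 and 5.82 in SAMR1 water, and rose by 2.87 (standard error 0.25, adjusted p = 0.000293). Both transcripts were higher in every SAMP8 TFQA array, by amounts that differed more than their errors. The other copies of the family moved by amounts close to the smaller one: Fam205a1 rose by 2.88 (standard error 0.25), Fam205a3 by 2.83 (standard error 0.25) and Fam205a4 by 2.93 (standard error 0.25).

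Ccl27a, at chr4:41769467-41774225, was at 15.08, 15.97 and 15.46 in SAMP8 TFQA, against 12.83, 12.06 and 12.53 in SAMR1 water, a rise of 3.03 (standard error 0.26, adjusted p = 0.000279). Gm21953 and Gm20878, the genes with near-identical promoter windows, rose by 2.99 (standard error 0.25) and 3.0 (standard error 0.27). Ccl19, which guides dendritic and T cells through the receptor CCR7 and lies at chr4:42754525-42756365, was at 8.20, 8.68 and 8.60 in SAMP8 TFQA, against 5.86, 6.05 and 6.81 in SAMR1 water (log2 difference 2.25, standard error 0.26, adjusted p = 0.0022). Ccl21b, which binds the same receptor, had a log2 difference of 0.55 and did not pass the test (adjusted p = 0.653).

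At the near end of this stretch lie genes outside the copied families. Dctn3, a subunit of dynactin, which links the motor dynein to its cargo, was at 14.94, 15.21 and 15.17 in SAMP8 TFQA, against 13.05, 12.83 and 13.03 in SAMR1 water, and rose by 2.14 (standard error 0.17, adjusted p = 0.00014). Myorg, a glycosidase that in human is linked to calcification of the brain, was the only gene of the stretch that fell. It was at 7.85, 7.74 and 7.72 in SAMP8 TFQA, against 9.22, 9.18 and 8.5 in SAMR1 water (log2 difference -1.20, standard error 0.21, adjusted p = 0.0472), and it was called in 1 of the 6 settings that each left out 1 array. The 6 genes measured between Myorg and Dctn3 had log2 differences of -0.28 to 0.78 and did not pass the test. Besides the stretch, LOC100861978, numbered on the array to an unplaced scaffold of chromosome 4, rose by 2.79 (standard error 0.23), and 4933409K07Rik, numbered to chromosome 4 itself, by 1.91 (standard error 0.21).

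**Figure D2:**
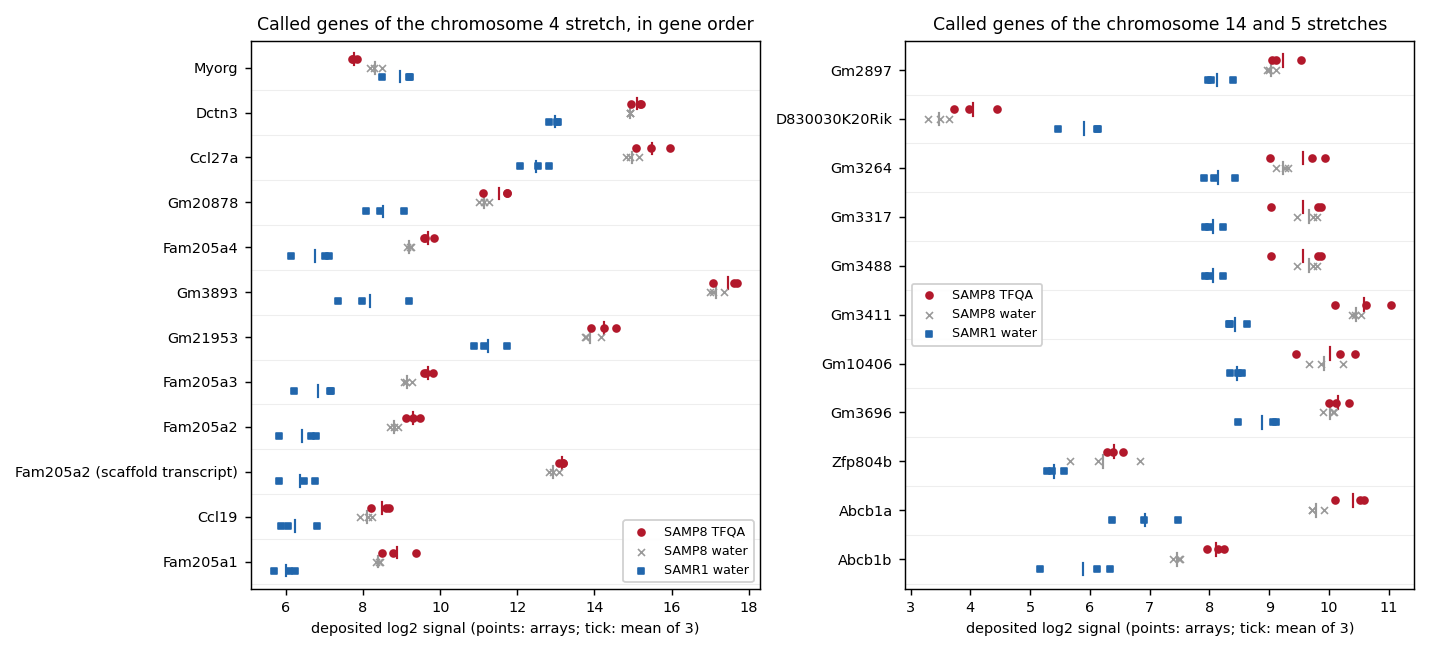
Log2 signal of each array for the called genes of the chromosome 4 stretch (left) and of the chromosome 14 and chromosome 5 stretches (right), with SAMP8 TFQA as red circles, SAMP8 water as grey crosses, SAMR1 water as blue squares and a tick at each mean of 3 arrays. Gm3893 lies above 17 in SAMP8 TFQA and below 10 in SAMR1 water, and its SAMP8 water arrays lie near those of SAMP8 TFQA. In Myorg the SAMP8 water arrays lie between those of SAMP8 TFQA and SAMR1 water.

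On chromosome 14, between 3049285 and 7106256, 18 genes were measured, with a median log2 difference of 1.19, of which 7 rose: Gm2897, Gm3264, Gm3317, Gm3488, Gm3411, Gm10406 and Gm3696. These are protein-coding genes without a name beyond their number. Gm3411, at chr14:6259747-6287250, was at 11.04, 10.10 and 10.61 in SAMP8 TFQA, against 8.34, 8.33 and 8.62 in SAMR1 water, and rose by 2.15 (standard error 0.24, adjusted p = 0.00184). The other copies rose by 1.1 to 1.57. The 6 values of Gm3317 and Gm3488 were identical, and the promoter windows of these genes were identical in 300 of 300 bases, so that the array gives 1 measurement for the 2 genes. Of the 7 genes, the call of Gm3411 alone held in all 6 settings that left out 1 array, whereas those of the others held in 0 or 1 of them. In the opposite direction, 1 of the 2 transcripts of D830030K20Rik was at 3.97, 3.72 and 4.45 in SAMP8 TFQA, against 6.12, 6.13 and 5.46 in SAMR1 water, and fell by 1.86 (standard error 0.25, adjusted p = 0.00734), while the other had a log2 difference of -0.24.

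The promoter windows of Gm3411 and Gm10406 show the same kind of likeness. They aligned over 248 columns with 232 identical bases and 16 that differed, or 93.5% identity, and are shown because the array cannot be assumed to tell such copies apart. The aligned parts are chr14:6287253-6287500 for Gm3411 and chr14:7027401-7027648 for Gm10406, both on the minus strand, with the differing bases in capitals. The part of Gm10406 lies inside the span of that gene, chr14:7006115-7028582, so its window is not that of the outermost start.
Gm3411: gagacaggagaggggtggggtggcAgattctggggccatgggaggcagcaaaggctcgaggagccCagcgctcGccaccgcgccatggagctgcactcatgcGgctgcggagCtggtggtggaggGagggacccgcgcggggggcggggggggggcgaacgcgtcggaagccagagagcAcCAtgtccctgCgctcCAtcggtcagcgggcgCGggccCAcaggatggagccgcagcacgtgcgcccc
Gm10406: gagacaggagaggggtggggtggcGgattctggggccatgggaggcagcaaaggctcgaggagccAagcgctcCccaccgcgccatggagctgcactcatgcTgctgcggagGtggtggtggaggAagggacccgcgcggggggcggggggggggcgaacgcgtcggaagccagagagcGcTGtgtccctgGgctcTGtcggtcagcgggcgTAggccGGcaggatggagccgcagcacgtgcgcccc

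On chromosome 5, between 6769030 and 8866314, 10 genes were measured and 3 rose, among them both genes for P-glycoprotein, the efflux pump of the blood-brain barrier. Abcb1a, the form of brain endothelial cells, at chr5:8567091-8748575, was at 10.59, 10.10 and 10.51 in SAMP8 TFQA, against 7.48, 6.90 and 6.37 in SAMR1 water. It rose by 3.48 (standard error 0.27, adjusted p = 0.00014). Abcb1b, at chr5:8798147-8866314, was at 7.96, 8.25 and 8.14 in SAMP8 TFQA, against 5.17, 6.12 and 6.34 in SAMR1 water, and rose by 2.24 (standard error 0.28, adjusted p = 0.00441). For both genes the lowest SAMP8 TFQA array was more than 1 above the highest SAMR1 water array, and both calls held when any single array was left out. Zfp804b, a zinc finger protein gene, rose by 1.01 (standard error 0.17, adjusted p = 0.0318), but was called in 0 of the 6 settings that left out 1 array. The other 7 genes of the stretch had log2 differences of -0.22 to 0.37, with adjusted p of 0.714 or more.

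Outside these stretches, single genes were set apart. Nrip1, a corepressor of nuclear receptors, was at 11.91, 12.12 and 11.99 in SAMP8 TFQA, against 9.96, 10.25 and 9.92 in SAMR1 water, and rose by 1.96 (standard error 0.17, adjusted p = 0.000277). Xdh, the enzyme that makes uric acid, was at 7.24, 7.26 and 7.53 in SAMP8 TFQA, against 5.80, 5.27 and 5.77 in SAMR1 water, and rose by 1.73 (standard error 0.20, adjusted p = 0.00217). In both genes all SAMP8 TFQA arrays lay more than 1 above all SAMR1 water arrays. Ranbp9, a scaffold protein of a ubiquitin ligase complex, was at 12.84, 12.83 and 12.82 in SAMP8 TFQA, against 11.70, 11.23 and 11.49 in SAMR1 water, and rose by 1.36 (standard error 0.17, adjusted p = 0.00583). Prss22, a serine protease, rose by 2.41 (standard error 0.26), and the pseudogene Gpr137b-ps by 1.58 (standard error 0.19). The calls of these 5 genes held in all 6 settings that left out 1 array.

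Further genes that rose depended more on single arrays. Lyz2, the lysozyme of macrophages and microglia, was at 7.67, 7.09 and 8.22 in SAMP8 TFQA, against 6.11, 6.23 and 5.36 in SAMR1 water (log2 difference 1.76, standard error 0.31, adjusted p = 0.0432), and was called in 1 of the 6 settings. Vmn2r29, a vomeronasal receptor gene, and Tmem203, a membrane protein of the endoplasmic reticulum, rose by 2.18 (standard error 0.33) and 1.79 (standard error 0.25), each called in 2 of the 6. Emp3, a membrane protein with 4 spans, rose by 1.05 (standard error 0.16), Tmem260 by 1.32 (standard error 0.23), Olfr194, an odorant receptor gene, by 1.18 (standard error 0.18) and Gm21671 by 1.51 (standard error 0.24), each called in 1 of the 6. Mcrip1 and 9030025P20Rik rose by 0.91 (standard error 0.15) and 1.04 (standard error 0.16), and were called in 0 of the 6.

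Of the 9 named genes that fell, 7 lie outside the stretches. Ppdpf, named as a differentiation and proliferation factor of pancreatic progenitor cells and lying at chr2:181186822-181188504, was at 5.97, 5.35 and 6.29 in SAMP8 TFQA, against 9.64, 9.53 and 9.86 in SAMR1 water. It fell by 3.81 (standard error 0.24, adjusted p = 2.29e-05). Mtap, which recycles methylthioadenosine into methionine and lies at chr4:89137370-89181090, was at 5.95, 5.74 and 6.81 in SAMP8 TFQA, against 8.58, 9.07 and 8.85 in SAMR1 water, and fell by 2.67 (standard error 0.27, adjusted p = 0.000964). In both genes the SAMP8 TFQA arrays were far below the lowest SAMR1 water array. Gm14403, a long non-coding RNA on chromosome 2, was at 12.36, 11.95 and 11.82 in SAMP8 TFQA, against 14.30, 14.66 and 14.09 in SAMR1 water, and fell by 2.31 (standard error 0.21). Morn2, a protein with MORN repeats, fell by 2.0 (standard error 0.19).

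Csnk1a1, the kinase CK1 alpha, which marks beta-catenin for degradation, was at 15.01, 14.80 and 14.97 in SAMP8 TFQA, against 16.27, 16.31 and 16.22 in SAMR1 water, and fell by 1.34 (standard error 0.16, adjusted p = 0.00292). It was the 1 called gene among 52 measured genes of the Wnt pathway, whose median log2 difference was -0.02, beside -0.01 over all genes. The calls of Ppdpf, Mtap, Gm14403, Morn2 and Csnk1a1 held in all 6 settings that left out 1 array. Slc18b1, a vesicular transporter of polyamines, fell by 1.66 (standard error 0.24, adjusted p = 0.0114) and was called in 2 of them. P3h2, which hydroxylates proline in collagen, fell by 1.51 (standard error 0.27, adjusted p = 0.0472) and was called in 1.

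**Figure D3:**
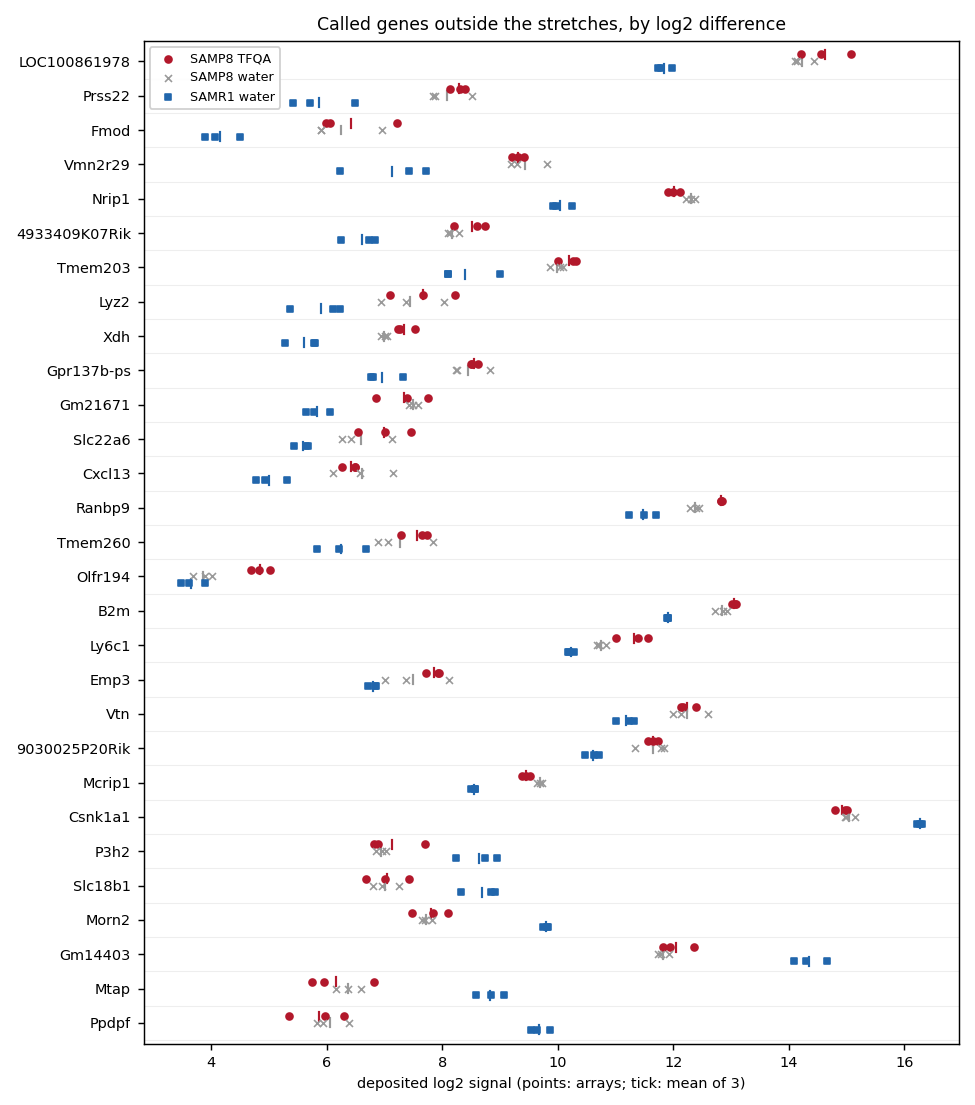
Log2 signal of each array for the called genes outside the stretches, in the order of their log2 difference, with SAMP8 TFQA as red circles, SAMP8 water as grey crosses, SAMR1 water as blue squares and a tick at each mean of 3 arrays. In every gene the red and the blue points do not overlap, and the grey points of Olfr194 lie within reach of the blue ones.

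The SAMP8 water arrays, which took no part in the test, can be set beside these values. A fit over all 9 arrays gave SAMP8 TFQA minus SAMP8 water and SAMP8 water minus SAMR1 water. Both share arrays with the comparison above and are therefore no independent evidence for it. In 98 of the 103 called transcripts, and in 51 of the 52 with a symbol, all 3 SAMP8 water arrays lay beyond those of SAMR1 water on the same side as SAMP8 TFQA. Olfr194 is the exception among the named genes, at 4.69, 4.82 and 5.01 in SAMP8 TFQA, 4.02, 3.89 and 3.68 in SAMP8 water and 3.47, 3.61 and 3.89 in SAMR1 water. The 103 were selected on the same SAMR1 water arrays, and the share of all transcripts with this order of arrays is not given here. Gm3893 was at 17.37, 17.00 and 17.07 in SAMP8 water, Abcb1a at 9.72, 9.71 and 9.91, and Ppdpf at 6.39, 5.93 and 5.83. Between SAMP8 TFQA and SAMP8 water, 0 transcripts were called in limma, where the smallest adjusted p was 0.488. An unadjusted p under 0.05 was found for 1580 of all 22206 transcripts and for 17 of the 103, which were selected on the same SAMP8 TFQA arrays. Of these 17, 9 carry a symbol. Olfr194 was 0.98 higher in SAMP8 TFQA than in SAMP8 water, with the smallest p of the 9, Abcb1b 0.65 higher, Abcb1a 0.62 higher, Ly6c1 and 1 transcript of D830030K20Rik 0.57 higher, Ccl27a 0.54 higher, Fam205a3 0.53 higher, Ranbp9 0.45 higher and Myorg 0.54 lower. None of the 9 passed the adjusted test of that contrast.

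Most markers of blood vessels had a higher signal in SAMP8 TFQA than in SAMR1 water. Of 21 measured markers of brain endothelial cells 19 were higher, 2 of them called, beside 0.383% of all transcripts, and 4 past the study's threshold, beside 3.78%, with a median log2 difference of 0.23. Their mean level was 8.79 to 8.89 in SAMP8 TFQA, against 8.37 to 8.49 in SAMR1 water, without overlap. Abcb1a is 1 of the 2 called genes. Without it the mean level was 8.70 to 8.81 in SAMP8 TFQA, against 8.47 to 8.54 in SAMR1 water, and the difference of the group means was 0.25, beside 0.41 with it. Ly6c1, a surface protein of endothelial cells, was at 11.01, 11.38 and 11.56 in SAMP8 TFQA, against 10.28, 10.20 and 10.18 in SAMR1 water, and rose by 1.1 (standard error 0.18, adjusted p = 0.0328), called in 1 of the 6 settings that left out 1 array. The other transporter and membrane genes of the list past the study's threshold, Slco1a4 and Itm2a, had log2 differences of 0.75 and 0.46. The defining markers Cldn5, Flt1 and Slc2a1 had log2 differences of 0.42 (standard error 0.30), 0.25 (standard error 0.17) and 0.35 (standard error 0.20), and did not pass the test.

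Of 16 measured markers of pericytes and smooth muscle 13 were higher. The threshold of the study was passed by 6 that were higher and 0 that were lower, beside 3.78% and 3.44% of all transcripts. The median log2 difference was 0.25, or 0.14 without SAMR1 water replicate 3, with mean levels of 6.71 to 6.94 in SAMP8 TFQA, against 6.34 to 6.52 in SAMR1 water. Vtn, the matrix protein vitronectin, which pericytes make in the brain, was at 12.16, 12.14 and 12.39 in SAMP8 TFQA, against 11.31, 11.23 and 11.01 in SAMR1 water. It rose by 1.05 (standard error 0.17, adjusted p = 0.026), but was called in 0 of the 6 settings that left out 1 array. Acta2, the actin of smooth muscle, was at 6.89, 7.01 and 7.72 in SAMP8 TFQA, against 6.30, 5.60 and 5.21 in SAMR1 water, with a log2 difference of 1.5 (standard error 0.30) and an adjusted p of 0.0879. Des, Rgs5 and Anpep had log2 differences of 0.84, 0.85 and 0.71. Not all markers of the list were higher: Abcc9, Pdgfrb and Myl9 had log2 differences of -0.32, -0.21 and -0.01. Whether the levels of the vessel markers have a part in the rise of Abcb1a was not tested.

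Markers of meningeal fibroblasts, the cells of the membranes around the brain, had a median log2 difference of 0.62, which among the 54 lists only that of the striatal markers exceeded. Of 20 measured, 16 were higher, 12 of them past the study's threshold, and 0 were lower at that threshold, beside 3.78% and 3.44% of all transcripts. Their mean level was 8.03, 7.62 and 8.15 in SAMP8 TFQA, against 7.16, 7.39 and 7.46 in SAMR1 water. The groups did not overlap, and the count past the study's threshold was 10 to 13 when 1 array was left out. Slc22a6, an organic anion transporter, was at 7.0, 6.54 and 7.45 in SAMP8 TFQA, against 5.43, 5.64 and 5.67 in SAMR1 water, and rose by 1.42 (standard error 0.23, adjusted p = 0.026), called in 1 of those 6 settings. Ptgds, a prostaglandin synthase, was at 14.81, 14.09 and 16.02 in SAMP8 TFQA, against 12.89, 13.75 and 12.91 in SAMR1 water (log2 difference 1.79, standard error 0.43, adjusted p = 0.205).

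Mgp, the matrix Gla protein, had a log2 difference of 1.34, Slc13a4, a sulfate transporter, of 0.85, Aldh1a2, which makes retinoic acid, of 0.73 and the collagen genes Col1a1 and Col1a2 of 0.55 and 0.83. Not all fibroblast genes were higher: Lum, a proteoglycan, had a log2 difference of -0.32 (standard error 0.28). Fmod, a proteoglycan of connective tissue outside this list, was at 5.99, 6.06 and 7.21 in SAMP8 TFQA, against 4.49, 4.07 and 3.89 in SAMR1 water, and rose by 2.27 (standard error 0.31, adjusted p = 0.00978), called in 4 of the 6 settings that left out 1 array. The part of the meningeal marker level in the values of Fmod and Slc22a6 was not tested. Of the choroid plexus markers 8 of 16 were higher, and mean levels overlapped. Their median log2 difference was 0.07, between -0.14 and 0.27 when 1 array was left out.

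**Figure D4:**
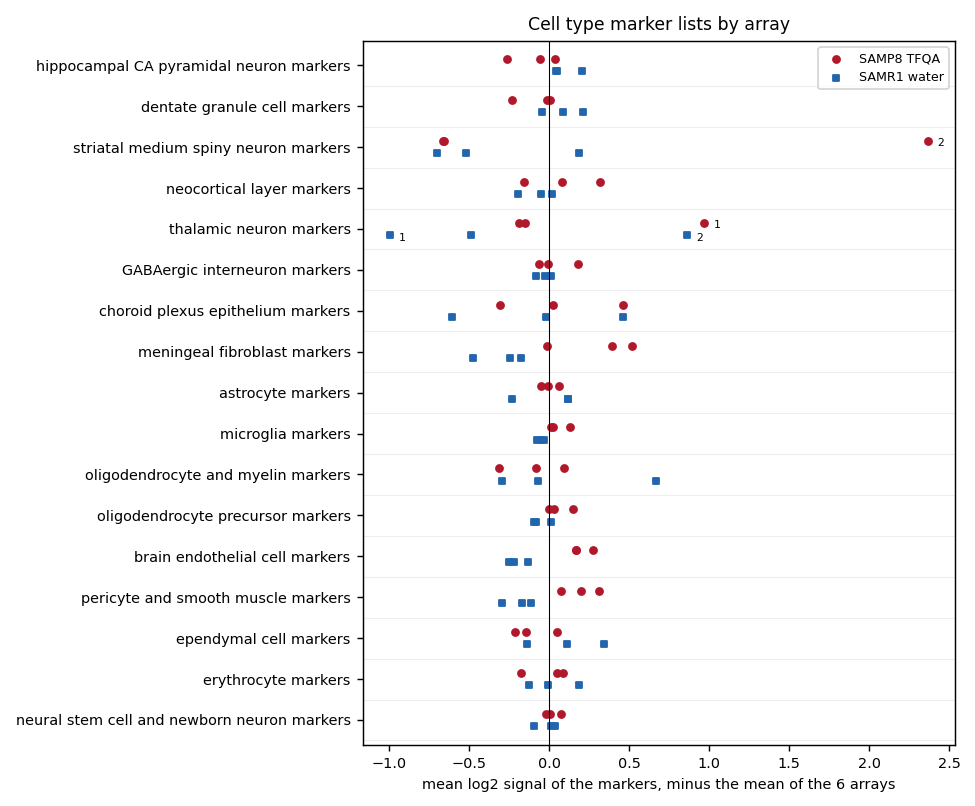
Mean log2 signal of each cell type marker list in each array, minus its mean over the 6 arrays, with SAMP8 TFQA as red circles above SAMR1 water as blue squares, and replicate numbers beside points further than 0.8 from 0. Endothelial, pericyte and meningeal markers lie apart in the 2 groups, and the striatal markers of SAMP8 TFQA replicate 2 lie 2.37 above the mean of the 6 arrays.

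Genes that interferon induces, which defend cells against viruses and load peptides onto MHC class I molecules, were more often higher than lower. Of 49 measured, 35 were higher, 14 of them past the study's threshold, and 1 was lower at that threshold, beside 3.78% and 3.44% of all transcripts. Their median log2 difference was 0.14 and their mean level 5.96 to 6.05 in SAMP8 TFQA, against 5.79 to 5.82 in SAMR1 water. B2m encodes the light chain of MHC class I molecules and lies at chr2:122147687-122153082. Its signal was 13.07, 13.08 and 13.02 in SAMP8 TFQA, against 11.89, 11.91 and 11.91 in SAMR1 water. It rose by 1.15 (standard error 0.15, adjusted p = 0.00693) and was the 1 called gene of the list, called in 5 of the 6 settings that left out 1 array. The array whose omission ended its call was SAMR1 water replicate 1. The count of 14 fell to 6 without SAMR1 water replicate 2, to 7 without SAMR1 water replicate 1 and to 9 without SAMP8 TFQA replicate 3 or SAMR1 water replicate 3.

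Ifitm3, which blocks the entry of viruses, was at 8.45, 8.77 and 8.43 in SAMP8 TFQA, against 7.17, 7.67 and 7.77 in SAMR1 water (log2 difference 1.01, standard error 0.20, adjusted p = 0.0891). Ifit3, which binds viral RNA complexes, had a log2 difference of 1.14 (standard error 0.28, adjusted p = 0.223), and the guanosine triphosphatase genes Gbp3 and Irgm1 of 0.53 and 0.57. H2-T23, a non-classical MHC class I gene of the antigen processing list, had a log2 difference of 1.03 (standard error 0.22, adjusted p = 0.128), whereas H2-D1, a classical one, was at 3.92, 3.93 and 3.69 in SAMP8 TFQA, against 4.31, 4.58 and 4.60 in SAMR1 water, a log2 difference of -0.65 (standard error 0.17, adjusted p = 0.276). The H2-D1 signals are low beside array medians of 6.76 to 6.80. Over the 25 measured genes of MHC class I and antigen processing, 14 were higher and 11 lower, with a median of 0.05, and over the 10 of MHC class II 4 were higher and 6 lower.

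Interferon acts through a DNA element whose core is approximated here by GAAANNGAA, and the promoters of these genes were searched for it on both strands. It occurred in 2812 of 32851 promoter windows of RefSeq, or 8.56%. By gene, at least 1 window held it in 2638 of 27025 genes, or 9.76%, and in 25 of the 38 list genes that have one. Of the 14 genes higher past the study's threshold 13 have a window, and 11 of these hold the motif. The length of the motif was settled after a longer form had been counted. A match says only that these letters stand in the window. The whole window of B2m is chr2:122147437-122147736 on the plus strand, and the parts around the first match are chr19:34583364-34583392 on the plus strand for Ifit3, chr11:48871432-48871460 on the minus strand for Irgm1 and chr3:142559990-142560018 on the plus strand for Gbp3. Capitals mark the motif on either strand, also where matches overlap.
B2m: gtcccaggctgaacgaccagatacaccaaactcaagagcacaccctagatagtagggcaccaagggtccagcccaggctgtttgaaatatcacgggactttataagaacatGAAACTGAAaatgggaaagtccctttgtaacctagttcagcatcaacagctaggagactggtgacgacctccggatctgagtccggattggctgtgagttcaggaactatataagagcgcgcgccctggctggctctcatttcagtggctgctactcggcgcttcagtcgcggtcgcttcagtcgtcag
Ifit3: agtggtaagtTTCACTTTCctcttctggt
Irgm1: cctgtttcaaGAAATAGAAACCGAAactg
Gbp3: aggacacagtTTCAGTTTCTATTTCccag

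Chemokines and their receptors did not shift as a group, with 21 higher and 26 lower of 47 and a median log2 difference of -0.03. Of the 47, 3 rose, beside 0.383% of all transcripts. Ccl27a and Ccl19 are genes of the chromosome 4 stretch, and the third was Cxcl13, which attracts B cells. Cxcl13 was at 6.49, 6.49 and 6.26 in SAMP8 TFQA, against 4.78, 4.93 and 5.31 in SAMR1 water, and rose by 1.41 (standard error 0.19, adjusted p = 0.00746), called in 4 of the 6 settings that left out 1 array. Of the reactive astrocyte genes, Gfap, the intermediate filament of astrocytes, was at 12.30, 12.21 and 12.41 in SAMP8 TFQA, against 11.67, 11.90 and 11.34 in SAMR1 water (log2 difference 0.67, standard error 0.19, adjusted p = 0.33). Vim, another intermediate filament, had a log2 difference of 0.85 (standard error 0.18, adjusted p = 0.105). Both were past the study's threshold. In all, 5 of the 21 genes of that list passed it upward and 1 downward, beside 3.78% and 3.44% of all transcripts, and 0 were called. The others upward were Cp, H2-T23 and Cxcl10. Further genes of the list differed little: Lcn2 and Serpina3n had log2 differences of 0.05 and 0.03, and Timp1 and Cd44 of -0.10 and -0.18. Of the complement genes, C4b had a log2 difference of -0.71 (standard error 0.19) and C1qc of 0.48 (standard error 0.19). The largest difference in size among the 19 measured was that of Masp2, at -0.92 (standard error 0.18, adjusted p = 0.0723 in limma). At the study's threshold 2 of the 19 were higher and 3 lower, beside 3.78% and 3.44% of all transcripts. The list of TNF, interleukin-1 and NF-kB genes had 0 higher and 2 lower of 40 at that threshold, beside the same 3.78% and 3.44% of all transcripts. Tnf itself was at 3.11, 2.88 and 2.90 in SAMP8 TFQA, against 2.82, 2.54 and 2.68 in SAMR1 water. These are low signals beside array medians of 6.76 to 6.80, so that little can be read from their difference.

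In the lists of neuronal genes, limma called 0 members. Of 27 measured immediate early genes, which neurons switch on within minutes of activity, 23 were lower, with a median log2 difference of -0.33. At the study's threshold 4 were lower and 0 higher, beside 3.44% and 3.78% of all transcripts. Nr4a3, a nuclear receptor, was at 13.55, 13.24 and 13.43 in SAMP8 TFQA, against 14.79, 13.95 and 14.21 in SAMR1 water (log2 difference -0.91, standard error 0.23, adjusted p = 0.227). Arc, which acts in synaptic plasticity, was at 7.0, 9.18 and 7.63 in SAMP8 TFQA, against 9.20, 9.05 and 8.73 in SAMR1 water, so that SAMP8 TFQA replicate 2 lay within the SAMR1 water range. Its log2 difference was -1.06 (standard error 0.44, adjusted p = 0.673). The count of 4 became 1 without SAMP8 TFQA replicate 1, 8 without SAMP8 TFQA replicate 2, 7 without SAMR1 water replicate 2 and 2 without any other array.

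Of 19 measured markers of hippocampal CA pyramidal neurons 16 were lower, with a median log2 difference of -0.31. Of 13 dentate granule cell markers 11 were lower, with a median of -0.15. At the study's threshold 1 of each list was lower, beside 3.44% of all transcripts. Both medians leaned on single arrays. Without SAMP8 TFQA replicate 2, the array with the high striatal markers, 6 dentate markers were higher and 7 lower, with a median of -0.01, and the CA median was -0.19. The dentate median was -0.26 without SAMP8 TFQA replicate 1, -0.24 without SAMR1 water replicate 1 and -0.30 without SAMP8 TFQA replicate 3. Without SAMR1 water replicate 1 the CA median was -0.18. Spink8, a marker of CA1, went the other way, at 9.39, 8.91 and 8.92 in SAMP8 TFQA, against 8.07, 7.97 and 8.58 in SAMR1 water (log2 difference 0.87, standard error 0.22). Of the glutamate receptor and postsynaptic scaffold genes, 6 of 50 were lower and 2 higher at the study's threshold, beside 3.44% and 3.78% of all transcripts. The 6 became 2, with 2 higher, without SAMP8 TFQA replicate 2 or without SAMR1 water replicate 1, and 4 without SAMP8 TFQA replicate 1. Among them, Homer3, a scaffold protein, had a log2 difference of -0.86 (standard error 0.22), Lingo2, a synaptic membrane protein, of -1.25 (standard error 0.33) and Dlg1, a scaffold of the PSD-95 family, of 0.58 (standard error 0.17). Doc2b, a calcium sensor of vesicle release, was at 11.03, 10.74 and 10.99 in SAMP8 TFQA, against 11.83, 11.79 and 11.65 in SAMR1 water, with a log2 difference of -0.84 (standard error 0.17, adjusted p = 0.0853). Cabp7, a neuronal calcium-binding protein, had a log2 difference of -1.1 (standard error 0.30, adjusted p = 0.323). Of 37 calcium handling genes 4 were lower and 0 higher at the study's threshold, beside the same 3.44% and 3.78% of all transcripts. The counts were 2 lower and 2 higher without SAMR1 water replicate 1.

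Of the 16 neocortical layer markers 4 were higher and 0 lower at the study's threshold, beside 3.78% and 3.44% of all transcripts. Their median log2 difference was 0.20, but -0.05 without SAMP8 TFQA replicate 2 and 0.05 without SAMR1 water replicate 3. The counts were 3 higher and 3 lower without SAMR1 water replicate 2, and 2 higher and 0 lower without SAMR1 water replicate 1. Cux2, a transcription factor of the upper layers, was at 9.39, 9.69 and 9.30 in SAMP8 TFQA, against 8.61, 8.45 and 8.70 in SAMR1 water (log2 difference 0.87, standard error 0.18, adjusted p = 0.0884). Of the 19 myelin and oligodendrocyte markers 17 were lower, with a median of -0.25, and 0 were past the study's threshold. Without SAMR1 water replicate 2 this direction was lost, with 10 higher and 9 lower and a median of 0.02, and the median was -0.13 without SAMP8 TFQA replicate 3 and -0.48 without SAMR1 water replicate 3. Their mean level was highest in SAMR1 water replicate 2, at 10.91 in the range of 9.95 to 10.91 of that group, against 9.93 to 10.34 in SAMP8 TFQA.

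The neurotrophins and their receptors, through which BDNF keeps neurons alive and shapes synapses, gave no call. Of 9 measured, 0 passed the study's threshold, and their median log2 difference was -0.05. Bdnf was at 10.49, 9.61 and 9.99 in SAMP8 TFQA, against 10.36, 9.59 and 10.30 in SAMR1 water, a log2 difference of -0.05 (95% interval from -0.65 to 0.55). Ntrk2, which encodes its receptor TrkB, was at 14.68, 14.81 and 14.93 in SAMP8 TFQA, against 14.57, 14.89 and 14.81 in SAMR1 water, a difference of 0.05 (95% interval from -0.33 to 0.43). The intervals do not show equal levels. Of 39 measured components of neurotrophin signaling, 0 passed the study's threshold either.

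Among the protein folding genes, Hspa5, the main chaperone of the endoplasmic reticulum, was at 14.75, 14.86 and 14.86 in SAMP8 TFQA, against 15.22, 15.27 and 15.16 in SAMR1 water. The groups did not overlap, and the log2 difference was -0.39 (standard error 0.15, adjusted p = 0.645). Hyou1, another chaperone there, had a log2 difference of -0.40 (standard error 0.17), and Hspa1a, a heat shock protein of the cytosol, of -0.46 (standard error 0.19). In each of the 2 lists, with 24 genes of the endoplasmic reticulum and 17 heat shock genes measured, 2 genes were lower and 0 higher at the study's threshold. Over all transcripts the shares were 3.44% and 3.78%. None of these genes was called. In both lists the 2 became 0 without SAMP8 TFQA replicate 1 or SAMR1 water replicate 2, and in that of the endoplasmic reticulum also without SAMR1 water replicate 1. The lists of oxidative phosphorylation, NRF2 targets, senescence and p53 genes, BCL2 family, Alzheimer disease, sirtuins and cholesterol synthesis had 0 calls and medians between -0.09 and 0.06. Of the 10 reference genes 9 were not called. B2m was the exception, and Tbp, a transcription factor, had a log2 difference of 0.73 (standard error 0.16, adjusted p = 0.128), while Gapdh had one of -0.05 (standard error 0.17).

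The 51 called transcripts without a gene symbol have no name in the annotation used. Of these, 21 are numbered to chromosome 4 or its scaffolds, 17 to chromosome 14, 5 to chromosome Y and 8 to other chromosomes. Those that rose had log2 differences of 1.17 to 8.07, with a median of 2.37, and those that fell of -1.1 to -2.83, with a median of -2.0. Of all called transcripts, 16 had 6 values identical to those of another called one, so that the number of calls is larger than that of separate measurements.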

How the data were processed

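RNA of the 3 SAMP8 TFQA, 3 SAMP8 water and 3 SAMR1 water samples was hybridized to Clariom S Mouse arrays. According to the paper, the authors used the Transcriptome Analysis Console and its SST-RMA method, whereas the labels name RMA and genome mm10. The deposited values are log2 signals. In R 4.3.3, limma 3.58.1 (lmFit, eBayes) was fitted to the 6 arrays of the comparison with 1 coefficient per group, and p-values were adjusted over 22206 transcripts. No transcript was filtered out. The method was tested on simulated data. The members and the 54 gene lists were chosen with earlier results of these data known. A list was described by counts, its median log2 difference and, per array, the mean of its measured members, with 1 transcript per gene. Named genes are the 15 with the largest called difference in each direction, with the downward set, where 9 were called, completed by smallest p among transcripts passing the study's threshold, called genes of a stretch, neurotrophins and their receptors, Tnf, Gapdh, and of each list the called members, or else at most 4 by smallest p. The remaining called genes and further list members were named after their values were seen. A stretch joins called genes whose starts are at most 2 Mb apart. Positions and promoter windows are those of RefSeq, GRCm38.p6. Alternatives were a fit of all 9 arrays, a replicate block, trend and robust eBayes, quantile normalization, centring, leaving out the 40% dimmest transcripts, ANOVA without moderation, array weights, 1 transcript of each set with equal values, and leaving out each array. Leaving Abcb1a out of the endothelial markers was added after seeing the data.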

Additional observations from a re-analysis of the deposited data

How the results depend on the processing

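At an adjusted p under 0.05, ANOVA without moderation called 10 transcripts higher and 1 lower in SAMP8 TFQA, against 85 and 18 in the comparison as reported. The fit of all 9 arrays called 28 lower, and trend and robust eBayes 33. Leaving out 1 array gave 51 to 82 higher and 8 to 15 lower. The count of higher transcripts was 52 without SAMP8 TFQA replicate 3 and 51 without SAMR1 water replicate 1, and that of lower ones was 9 without SAMP8 TFQA replicate 1, 10 without SAMP8 TFQA replicate 3 or SAMR1 water replicate 3 and 8 without SAMR1 water replicate 1. The cause was not tested. With the replicate block 83 transcripts were higher and 22 lower, of which 93 were among the 103. Same-numbered arrays correlated at 0.0014, 0.065 and 0.094 in their deviations, beside -0.091 to 0.020 for arrays of different numbers. These values do not settle whether the numbers pair the samples. The other alternatives kept both counts within 1.5 times, and at the study's threshold every alternative did. Of the 52 calls with a symbol, 26 held in all 6 settings that left out 1 array. Leaving out 1 array turned the sign of Bdnf, with differences of -0.30 to 0.16, of Ntrk2, with -0.043 to 0.117, and of Gapdh, with -0.135 to 0.035. With 3 arrays a group, differences of about the median standard error of 0.19 were not resolved here, and larger ones did not always pass the test either. An example is Hspa5, with a log2 difference of -0.39 and an adjusted p of 0.645 in limma.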
